A study of Rattus norvegicus with 8 samples.

Results

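The acute phase response is the change in serum proteins that follows infection or injury, and 10 of its genes were followed here in the cervix of pregnant rats: Saa3, Orm1, Hp, Cp, Steap4, A2m, Ptx3, Fga, Fgb and Tifa. They are a list of named genes, taken as rows of the deposited count table, and all 10 were found among its 29884 genes. In the LPS group, wild-type Sprague-Dawley rats received lipopolysaccharide (LPS), a component of the cell wall of Gram-negative bacteria that Toll-like receptor signalling detects, into the peritoneum at 100 µg/kg on gestational day 17. In the PBS group, wild-type rats of the same strain and stage received an equal volume of phosphate-buffered saline (PBS). The cervix was taken 12 hours after the injection in both groups, and each group gave 4 libraries of total RNA, which the design text calls biological replicates. How many animals each library came from is not given in the sources used here. Total counts ran from 39580706 to 40408153 in LPS and from 33191039 to 40634384 in PBS, and levels are given as counts scaled to a library of 1e6 (CPM) after TMM scaling. At these depths 3 counts correspond to 0.0734 to 0.0768 CPM in LPS and to 0.0739 to 0.0899 CPM in PBS. In an earlier look at these data LPS replicate 2 and PBS replicate 1 stood away from the rest, so calls lost or gained without the pair are given beside the results on single genes.

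The acute phase response is best known from the liver. Cytokines of the interleukin-6 family act there through the receptor chain gp130 and the transcription factor STAT3, and interleukin-1 and tumour necrosis factor act through NF-kB and C/EBP factors, so that hepatocytes release carriers of lipid and haem, clotting factors and protease inhibitors into the blood. Many of these genes are also transcribed outside the liver, in epithelia, fat, fibroblasts and myeloid cells. In the cervix, ripening before birth involves a remodelled collagen and hyaluronan matrix and an influx of leukocytes.

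The name of the group holds for 8 of the 10 genes. Steap4 encodes a metalloreductase of cell membranes and Tifa a cytosolic adaptor of innate signalling, so neither is a serum protein, although both respond to inflammatory stimuli. Of 16 hepatocyte markers, 4 passed the filter on low counts, 0 were higher and 1, Serpina1, was lower in LPS, and the summed level of all 16 was 45.9 to 86.7 CPM in LPS and 84.9 to 117 CPM in PBS. Serpina1, which encodes alpha-1-antitrypsin and is also transcribed in myeloid and epithelial cells, made up most of that sum. Without it the other 15 markers summed to 2.94, 8.96, 5.37 and 5.53 CPM in LPS replicates 1 to 4 and to 3.40, 2.95, 3.30 and 3.90 CPM in PBS replicates 1 to 4. Alb, the serum albumin gene and the defining transcript of hepatocytes, stood at 0.148, 0.435, 0.633 and 0.122 CPM in LPS and at 0.0511, 0.0248, 0.0246 and 0.480 CPM in PBS. The largest single value among the 15 markers was 2.55 CPM, of the hemopexin gene Hpx in PBS replicate 4. The uterine and cervical identity genes Pgr, Esr1, Hoxa10, Hoxa11, Hoxa13 and Emx2 were present in all libraries and summed to 542 to 788 CPM in LPS and 594 to 649 CPM in PBS. Only transcripts were measured, so the cells that carry them and the amount of protein are not known from these data, and in whole tissue more cells of a type and more RNA per cell cannot be told apart.

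RefSeq promoter windows of the build GRCr8, from 250 bases before to 50 bases after the transcription start, were matched for 8 of the 10 genes, with 2 windows for Fga. A2m and Hp were not matched. Each window was searched on both strands for 4 motifs. These were the STAT motif TTCNNNGAA, the core CTGGGAA of the interleukin-6 response element of acute phase genes, the C/EBP motif TTGCNNAA and the NF-kB motif, GGG and TTCC with 3 bases of any kind between them. Among 33469 RefSeq rat promoters of the same length 8.87% hold the STAT motif, 11.3% the interleukin-6 core, 10.6% the C/EBP motif and 5.37% the NF-kB motif. The C/EBP motif was found in 7 of the 8 genes (Saa3, Orm1, Cp, Steap4, Ptx3, Fga and Fgb), the STAT motif in 3 (Steap4, Fga and Fgb), the interleukin-6 core in 3 (Saa3, Steap4 and Fgb) and the NF-kB motif in 3 (Orm1, Steap4 and Tifa). No match overlapped another in these windows. A match is a run of letters and not a measured binding site. The windows below are shown 5′ to 3′ on the strand of the gene, with the matches in capitals. Saa3, Cp and Ptx3 are shown because their C/EBP matches begin at nearly the same distance from the start (-75, -72 and -70), Steap4 because it holds all 4 motifs, Fgb because it holds 3 of them without having risen, and Tifa because it holds the NF-kB motif alone, beginning at -14. Positions are counted in bases from the start, with negative numbers upstream.
Saa3, GRCr8 chr1:106358381-106358680, minus strand, C/EBP and interleukin-6 core: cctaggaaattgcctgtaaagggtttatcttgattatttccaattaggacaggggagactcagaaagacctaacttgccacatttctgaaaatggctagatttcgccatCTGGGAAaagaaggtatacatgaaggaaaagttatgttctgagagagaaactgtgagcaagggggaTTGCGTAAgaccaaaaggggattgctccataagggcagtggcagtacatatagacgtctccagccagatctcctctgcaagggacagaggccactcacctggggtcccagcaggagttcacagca
Cp, GRCr8 chr2:104368420-104368719, plus strand, C/EBP: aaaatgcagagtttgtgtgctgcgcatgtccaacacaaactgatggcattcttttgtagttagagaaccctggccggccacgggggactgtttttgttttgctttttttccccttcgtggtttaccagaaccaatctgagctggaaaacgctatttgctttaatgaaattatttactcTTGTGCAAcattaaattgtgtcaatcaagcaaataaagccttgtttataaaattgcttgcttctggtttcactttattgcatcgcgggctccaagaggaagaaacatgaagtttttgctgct
Ptx3, GRCr8 chr2:152797313-152797612, plus strand, C/EBP: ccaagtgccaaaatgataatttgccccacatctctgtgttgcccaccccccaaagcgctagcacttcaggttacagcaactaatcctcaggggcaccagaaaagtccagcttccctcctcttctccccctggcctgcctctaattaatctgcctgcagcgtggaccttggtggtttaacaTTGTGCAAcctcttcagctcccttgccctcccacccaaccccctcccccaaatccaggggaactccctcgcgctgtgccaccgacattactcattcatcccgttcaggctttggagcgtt
Steap4, GRCr8 chr4:27054720-27055019, minus strand, all 4 motifs: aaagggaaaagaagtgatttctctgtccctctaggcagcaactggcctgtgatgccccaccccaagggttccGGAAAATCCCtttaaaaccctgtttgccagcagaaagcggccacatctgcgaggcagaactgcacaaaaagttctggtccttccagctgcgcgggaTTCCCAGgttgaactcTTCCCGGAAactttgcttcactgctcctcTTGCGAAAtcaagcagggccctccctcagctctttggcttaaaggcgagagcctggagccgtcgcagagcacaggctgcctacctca
Fgb, GRCr8 chr2:170700826-170701125, minus strand, STAT, interleukin-6 core and C/EBP: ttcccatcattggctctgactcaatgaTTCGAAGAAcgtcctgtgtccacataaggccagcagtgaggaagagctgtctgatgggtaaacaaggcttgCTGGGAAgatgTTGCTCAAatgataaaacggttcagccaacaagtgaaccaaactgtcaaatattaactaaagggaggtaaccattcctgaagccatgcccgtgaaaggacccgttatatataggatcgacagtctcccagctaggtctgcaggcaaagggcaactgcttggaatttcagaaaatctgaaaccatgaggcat
Tifa, GRCr8 chr2:218932636-218932935, plus strand, NF-kB: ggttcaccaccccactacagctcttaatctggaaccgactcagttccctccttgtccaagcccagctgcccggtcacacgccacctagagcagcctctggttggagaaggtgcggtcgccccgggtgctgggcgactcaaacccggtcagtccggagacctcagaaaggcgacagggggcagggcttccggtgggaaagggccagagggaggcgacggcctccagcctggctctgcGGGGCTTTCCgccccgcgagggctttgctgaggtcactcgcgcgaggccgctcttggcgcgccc

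After LPS, 7 of the 10 genes were higher (Saa3, Ptx3, Hp, Cp, Steap4, Orm1 and Tifa), 1 was lower (Fga), and Fgb and A2m did not pass the threshold, an adjusted p under 0.05 in edgeR's quasi-likelihood test with Benjamini-Hochberg adjustment over 16117 genes. Over all genes tested, 16.9% were called, 9.49% higher and 7.45% lower. The median log2 fold change, LPS minus PBS, was 2.05 over the 10 genes and 0.01 over all genes tested. All 4 LPS libraries lay above all 4 PBS libraries for 6 of the 10 genes, an arrangement seen in 12.9% of the genes tested. For Fga and Fgb all 4 LPS libraries lay below all PBS libraries, as for 10.5% of the genes tested, and for Orm1 and A2m the groups overlapped. Together the 10 genes took 0.288, 0.309, 0.336 and 0.242% of all counts in LPS replicates 1 to 4 and 0.0746, 0.0502, 0.0939 and 0.0408% in PBS replicates 1 to 4. The 10 genes thus held a larger share of the RNA in each LPS library than in any PBS library. Without PBS replicate 1 and LPS replicate 2, 5 genes were higher and 0 lower, since Orm1 (2.49, adjusted p = 0.0501), Tifa (1.58, adjusted p = 0.0594) and Fga (-2.88, adjusted p = 0.0843) then missed the threshold. Between 5 and 7 were higher and 0 or 1 lower when a single library was left out. No transcript lengths were used. Sums and ratios of reads of different genes, where given, are therefore shares of reads and not of transcript molecules.

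**Figure D1:**
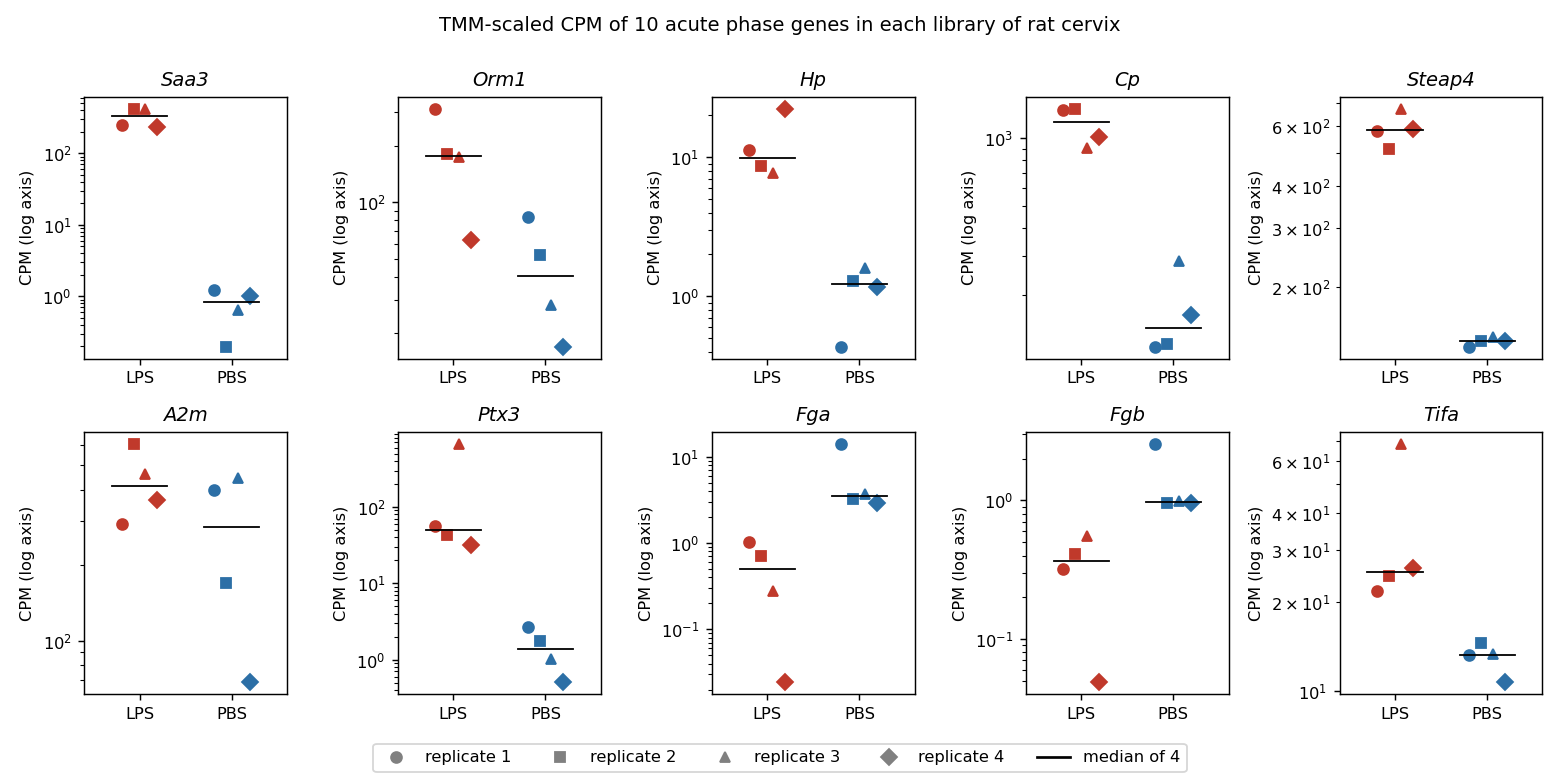
TMM-scaled CPM of the 10 acute phase genes in each library, on log axes, 1 panel per gene, with LPS libraries left of PBS libraries, points for single libraries, marker shapes for replicate numbers and lines for the group medians. LPS and PBS libraries do not overlap for Saa3, Hp, Cp, Steap4, Ptx3, Tifa, Fga and Fgb, and they overlap for Orm1 and A2m.

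Saa3, an acute phase apolipoprotein of high-density lipoprotein that in rodents is transcribed mainly outside the liver, rose more than any other gene tested. Its level was 253, 420, 425 and 234 CPM in LPS replicates 1 to 4 and 1.23, 0.198, 0.641 and 1.02 CPM in PBS replicates 1 to 4. All 4 LPS libraries were far above every PBS library, and LPS replicates 2 and 3 were the high pair. The 4 LPS libraries held 53036 Saa3 reads in all and the 4 PBS libraries 116. The means were 333 ± 104 CPM in LPS and 0.771 ± 0.452 CPM in PBS (SD, n = 4 each), 432-fold apart, and the log2 fold change was 8.76 (SE 0.52, adjusted p = 0.000252). Saa4, a family member made constitutively in liver, had between 1 and 3 reads in each LPS library and 0 in each PBS library, which is at the floor. Saa1 and Saa2, the other acute phase members, were on the list of further acute phase genes below, and their levels are not given here. How reads shared between these similar genes were assigned is not given in the sources used here.

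Ptx3 encodes a long pentraxin, a soluble pattern recognition protein that tissue cells release under interleukin-1 and tumour necrosis factor and that also crosslinks hyaluronan matrix. It stood at 56.7, 43.1, 670 and 31.8 CPM in LPS and at 2.71, 1.73, 1.01 and 0.510 CPM in PBS. Every LPS library was above every PBS library, and LPS replicate 3 was far above the other 3 LPS libraries. The means were 200 ± 313 CPM in LPS and 1.49 ± 0.955 CPM in PBS (SD, n = 4 each), so the LPS spread was larger than the LPS mean. The log2 fold change was 7.06 (SE 1.29, adjusted p = 0.0087), without LPS replicate 3 it was 4.86 (adjusted p = 0.00174), and without PBS replicate 1 and LPS replicate 2 it was 7.84. The threshold was missed by limma-voom (6.04, adjusted p = 0.0988). The short pentraxin Crp, the liver-made relative, did not pass the threshold, at 1.04, 0.870, 0.152 and 0.342 CPM in LPS and 2.63, 1.34, 0.616 and 0.510 CPM in PBS (log2 fold change -1.08, adjusted p = 0.323).

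Of 14 genes for the proteins that bind Ptx3 or build the hyaluronan matrix it crosslinks, 10 were tested, 3 were higher and 1 was lower, with a median log2 fold change of 0.34. Vcan, the hyaluronan-binding proteoglycan versican, rose to 295 ± 60.6 CPM in LPS, against 116 ± 14.6 CPM in PBS (SD, n = 4 each; log2 fold change 1.34, adjusted p = 0.00147). Cd44, a hyaluronan receptor, rose by a log2 fold change of 0.69 (adjusted p = 0.014). Tnfaip6, the enzyme that transfers inter-alpha-trypsin inhibitor heavy chains to hyaluronan and binds Ptx3, did not pass the threshold. It had 519, 1195, 445 and 385 CPM in LPS and 833, 847, 954 and 845 CPM in PBS (log2 fold change -0.45, adjusted p = 0.385). LPS replicate 2 alone was above the PBS libraries, and without it Tnfaip6 was lower in LPS (-0.96, adjusted p = 0.00431). The heavy chain gene Itih5 fell (-0.78, adjusted p = 0.0473) and the link protein gene Hapln1 rose (1.52, adjusted p = 0.0476), both close to the threshold. The call of Itih5 was lost without any single library other than LPS replicate 1 or PBS replicate 4, and that of Hapln1 without any other than LPS replicate 4 (adjusted p up to 0.112 for Itih5 and 0.116 for Hapln1). Without PBS replicate 1 and LPS replicate 2 together, Itih5 (-0.54, adjusted p = 0.147) and Hapln1 (1.32, adjusted p = 0.096) were not called and Tnfaip6 was lower (-0.98, adjusted p = 0.00906).

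Orm1, alpha-1-acid glycoprotein, is a serum carrier of small basic and neutral molecules. It rose to 315, 179, 174 and 62.9 CPM in LPS, against 83.2, 52.6, 28.2 and 17.0 CPM in PBS. LPS replicate 4 was below PBS replicate 1, so the groups overlapped, and replicate 1 was the highest library of both groups. The means were 183 ± 103 CPM in LPS and 45.3 ± 29.3 CPM in PBS (SD, n = 4 each), and the log2 fold change was 2.01 (SE 0.58, adjusted p = 0.0455). Orm1 varied within both groups, with an SD of log2 CPM of 0.97 in LPS and 1.0 in PBS, where the medians over all genes tested were 0.228 in LPS and 0.207 in PBS. The call was lost without any single library other than LPS replicate 4 or PBS replicate 1 (log2 fold change 1.62 to 2.09, adjusted p 0.0780 to 0.112), and without PBS replicate 1 and LPS replicate 2 together (2.49, adjusted p = 0.0501).

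Hp, Cp and Steap4 handle haem, iron and copper, and all 3 rose. Hp encodes haptoglobin, which binds free haemoglobin. It had 11.2, 8.68, 7.72 and 22.4 CPM in LPS and 0.434, 1.29, 1.6 and 1.17 CPM in PBS. The groups did not overlap, and LPS replicate 4 was the highest. The means were 12.5 ± 6.76 CPM in LPS and 1.12 ± 0.494 CPM in PBS (SD, n = 4 each), an 11.1-fold difference, or 3.47 on the log2 scale (SE 0.48, adjusted p = 0.00279). Haptoglobin is also stored in neutrophil granules. Of 13 neutrophil markers 9 were tested, 7 were higher and 0 lower, and 8 of the 9 were highest in LPS replicate 4, the library with the most Hp. Their summed level was 699, 393, 885 and 1641 CPM in LPS replicates 1 to 4 and 38.1 to 62.9 CPM in PBS, and their part in the rise of Hp was not tested.

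Cp encodes ceruloplasmin, a copper-carrying ferroxidase that loads iron onto transferrin. It stood at 1344, 1358, 907 and 1017 CPM in LPS and at 118, 122, 285 and 164 CPM in PBS. The lowest LPS library was above the highest PBS library, PBS replicate 3. The means were 1156 ± 229 CPM in LPS and 172 ± 78.0 CPM in PBS (SD, n = 4 each), a 6.71-fold difference, or 2.75 on the log2 scale (SE 0.31, adjusted p = 0.0013).

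Steap4 encodes a membrane reductase of ferric iron and cupric copper that is known from fat and inflamed epithelium. Its level was 579, 515, 676 and 587 CPM in LPS and 133, 139, 143 and 139 CPM in PBS. The libraries of each group lay close together, with an SD of log2 CPM of 0.16 in LPS and 0.04 in PBS. The means were 589 ± 66.5 CPM in LPS and 139 ± 3.89 CPM in PBS (SD, n = 4 each), a 4.26-fold difference. The log2 fold change was 2.09 (SE 0.10, adjusted p = 0.000133), the lowest p of all genes tested. Of its paralogs Steap2 rose by 1.32 (adjusted p = 0.0305), with 63.9, 63.5, 90.6 and 35.2 CPM in LPS and 35.9, 22.1, 29.3 and 14.1 CPM in PBS, a call lost without any single library other than LPS replicate 4 or PBS replicate 1 (adjusted p 0.0539 to 0.0916). Steap1 (0.79, adjusted p = 0.154) and Steap3 (0.15, adjusted p = 0.572) did not pass the threshold. Adipocyte markers, 7 in number, were neither higher nor lower at the threshold, and summed to 155 to 260 CPM in LPS and 121 to 588 CPM in PBS.

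Of 24 other genes for handling haem, iron and copper, 22 were tested, 10 were higher and 3 lower, with a median log2 fold change of 0.65. The haptoglobin-haemoglobin receptor Cd163 rose to 153, 147, 278 and 149 CPM in LPS, against 53.1, 36.9, 34.2 and 36.7 CPM in PBS (log2 fold change 2.18, adjusted p = 0.00133). Lrp1, an endocytic receptor for haem-hemopexin and for A2m-protease complexes, rose to 1073 ± 173 CPM in LPS, against 403 ± 22.2 CPM in PBS (SD, n = 4 each; 1.41, adjusted p = 0.000568). Slc11a1, which exports metals from phagosomes, rose by 3.15 (adjusted p = 0.000648), and the ferritin heavy chain gene Fth1 rose by 1.05 (adjusted p = 0.00148). Slc39a14, an importer of iron and zinc, rose by 2.25 (adjusted p = 0.00661), a value that was 1.66 once LPS replicate 3, its highest library, was left out.

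The 3 genes of this list that fell were Slc40a1, Heph and Atp7b. Slc40a1, ferroportin, the iron exporter, fell to 8.05, 6.78, 11.2 and 12.3 CPM in LPS, against 33.2, 23.6, 21.8 and 26.0 CPM in PBS (log2 fold change -1.45, adjusted p = 0.00381). The highest LPS library was below the lowest PBS library. Heph, hephaestin, a membrane ferroxidase related to ceruloplasmin, fell by 0.60 on the log2 scale (adjusted p = 0.0304), a call lost without LPS replicate 1 or 3 or PBS replicate 1, 3 or 4 (adjusted p 0.0551 to 0.0758), and without LPS replicate 2 and PBS replicate 1 together (-0.67, adjusted p = 0.0553). Atp7b, the copper pump that supplies ceruloplasmin in liver, had 0.939, 0.691, 0.962 and 0.709 CPM in LPS and 36.4, 1.91, 7.15 and 2.94 CPM in PBS. Its log2 fold change was -3.87 (adjusted p = 0.0257), and it was -2.28 without PBS replicate 1, and the call was lost without any single LPS library (adjusted p 0.0605 to 0.0636), with limma-voom (-2.93, adjusted p = 0.145) and with quality weights (-2.55, adjusted p = 0.152). Hmox1, the haem oxygenase induced by haem, did not pass the threshold, at 95.8, 62.1, 296 and 150 CPM in LPS and 130, 141, 57.7 and 197 CPM in PBS (0.20, adjusted p = 0.818), and its sign turned without LPS replicate 3 (-0.36). Of 10 macrophage markers 8 were tested, and 7 of these were higher and 0 lower, Cd163 among them. They summed to 948 to 1482 CPM in LPS and 319 to 455 CPM in PBS, and their part in these changes was not tested.

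A2m encodes alpha-2-macroglobulin, a protease trap that in rats is a major acute phase protein of liver and is also made by the decidua. It did not pass the threshold. Its level was 292, 608, 461 and 365 CPM in LPS and 397, 170, 444 and 68.5 CPM in PBS. The groups overlapped, with PBS replicates 1 and 3 inside the LPS range. The means were 431 ± 136 CPM in LPS and 270 ± 180 CPM in PBS (SD, n = 4 each), the log2 fold change was 0.68 (SE 0.52, adjusted p = 0.405), and the SD of log2 CPM within PBS was 1.25. No alternative analysis called it (0.35 to 1.02, adjusted p 0.266 to 0.631). Its rat relatives were nearly absent, with 0 reads of Mug1, 1 read of Mug2 and 13 reads of Pzp over all 8 libraries. The epithelial relative A2ml1 had 223, 326, 55.6 and 18.6 CPM in LPS and 101, 45.0, 62.5 and 51.6 CPM in PBS, again with overlap (1.26, adjusted p = 0.282). Of 12 trophoblast and decidua markers 0 passed the filter, and they summed to at most 0.253 CPM in any library.

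Fga and Fgb encode the alpha and beta chains of fibrinogen, the precursor of the clot. In liver both rise in the acute phase, and here both stood lower in LPS. Fga had 42, 28, 11 and 1 reads in LPS and 553, 132, 151 and 97 reads in PBS, which is 1.04, 0.717, 0.279 and 0.0245 CPM in LPS and 14.1, 3.27, 3.72 and 2.91 CPM in PBS. All LPS libraries were below all PBS libraries, PBS replicate 1 was far above the other 3, and LPS replicate 4 was under the floor of 3 counts. The means were 0.514 ± 0.451 CPM in LPS and 6.01 ± 5.42 CPM in PBS (SD, n = 4 each), and Fga fell by 3.54 on the log2 scale (SE 0.89, adjusted p = 0.029). Without PBS replicate 1 the log2 fold change was -2.68 (adjusted p = 0.0576). The call was also lost without LPS replicate 2, LPS replicate 3 or PBS replicate 2 (adjusted p 0.0516 to 0.0742).

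Fgb had 13, 16, 22 and 2 reads in LPS and 100, 39, 40 and 32 reads in PBS. The order of the groups was that of Fga, without overlap and with PBS replicate 1 highest and LPS replicate 4 lowest. The levels were 0.334 ± 0.214 CPM in LPS and 1.37 ± 0.792 CPM in PBS (SD, n = 4 each), and the log2 fold change of -2.02 (SE 0.64) did not pass the threshold (adjusted p = 0.0618). DESeq2 called it lower (-2.04, adjusted p = 0.0116). The third chain of the hexamer, Fgg, was below the filter, with 18, 7, 4 and 6 reads in LPS and 14, 1, 0 and 2 reads in PBS. Its change was not tested. Reads of Fga per read of Fgb were 3.23, 1.75, 0.5 and 0.5 in LPS replicates 1 to 4 and 5.53, 3.38, 3.78 and 3.03 in PBS replicates 1 to 4, with only 3 reads of both genes behind the value of LPS replicate 4. Among cell type markers, red cell genes were also lower in LPS, 5 of 8 tested, and summed to 120 to 671 CPM in LPS and 725 to 2254 CPM in PBS. Smooth muscle genes were lower for 5 of 7, with sums that overlapped between the groups (3686 to 5397 CPM in LPS and 4443 to 12358 CPM in PBS). Of 9 epithelium markers tested 1 was lower and 0 were higher. The epithelium sums did not overlap, at 5686 to 6900 CPM in LPS and 7453 to 12089 CPM in PBS. The part of these cell types in the fall of Fga was not tested.

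Of 19 other genes of fibrin formation and lysis, 15 were tested, 4 were higher and 3 lower, with a median log2 fold change of 0.23. F10, coagulation factor X, rose to 6.03, 8.47, 6.10 and 5.72 CPM in LPS, against 0.664, 0.718, 0.862 and 1.17 CPM in PBS (log2 fold change 2.95, adjusted p = 0.00048). Itgam, a chain of the leukocyte integrin that binds fibrinogen, rose by 2.03 (adjusted p = 0.000704), and Plat, tissue plasminogen activator, by 1.40 (adjusted p = 0.0124). Fgl2, a fibrinogen-like prothrombinase of macrophages and endothelium, rose by 1.01 (adjusted p = 0.00883). F3, tissue factor, the trigger of coagulation, fell to 437, 331, 653 and 322 CPM in LPS, against 1713, 914, 1367 and 1113 CPM in PBS (-1.55, adjusted p = 0.00761). Thbd, the anticoagulant thrombomodulin, fell as well (-0.80, adjusted p = 0.00939), and so did the platelet integrin gene Itga2b (-1.65, adjusted p = 0.0479), whose call was lost without any single library other than PBS replicate 3 or 4 (adjusted p 0.0788 to 0.122). Without PBS replicate 1 and LPS replicate 2, Itga2b (-1.41, adjusted p = 0.141) and Plat (1.25, adjusted p = 0.0563) missed the threshold.

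Tifa encodes an adaptor that, once the kinase ALPK1 has sensed bacterial sugar nucleotides that are precursors of LPS, assembles with TRAF6 to activate NF-kB. It rose to 21.8, 24.5, 68.5 and 26.1 CPM in LPS, against 13.2, 14.6, 13.4 and 10.8 CPM in PBS. The groups did not overlap, and LPS replicate 3 was far above the other LPS libraries. The means were 35.3 ± 22.2 CPM in LPS and 13 ± 1.6 CPM in PBS (SD, n = 4 each), or 1.44 on the log2 scale (SE 0.36, adjusted p = 0.029). Without LPS replicate 3 it was 0.90 (adjusted p = 0.00593). The call was lost without any single PBS library (adjusted p 0.0551 to 0.0705) and with limma-voom (1.27, adjusted p = 0.0577). Of 11 partners of Tifa, all tested, 1 was higher and 0 lower, with a median log2 fold change of 0.02. That gene was Traf2 (0.45, adjusted p = 0.0258), whose call was lost without LPS replicate 2 or 4 or PBS replicate 1, 2 or 3 (adjusted p 0.0530 to 0.0760), and without LPS replicate 2 and PBS replicate 1 together (0.39, adjusted p = 0.0966). Alpk1 (0.12, adjusted p = 0.485) and Traf6 (-0.01, adjusted p = 0.934) did not pass the threshold.

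**Figure D2:**
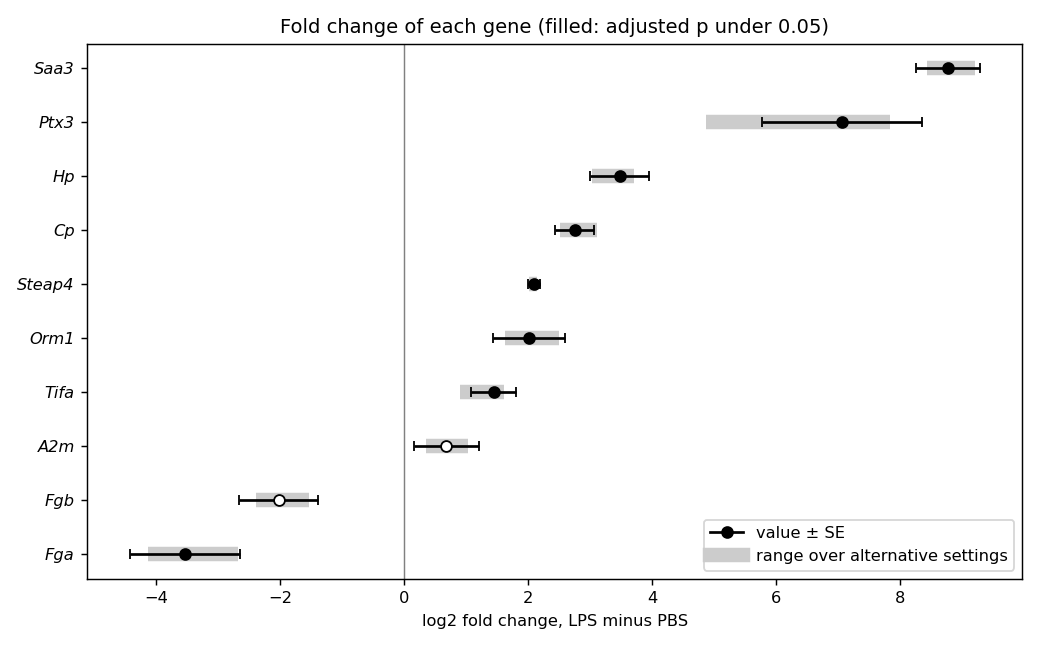
Log2 fold change, LPS minus PBS, of the 10 acute phase genes as points with SE bars, open where the threshold was missed, over grey bands that span the values under the alternative settings. The band of Steap4 is narrow (2.02 to 2.14), whereas those of Ptx3 and Tifa reach down to 4.86 and 0.90 without LPS replicate 3 and that of Fga up to -2.68 without PBS replicate 1.

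Of 26 further acute phase genes, 18 were tested, 8 were higher and 1 was lower, with a median log2 fold change of 0.89. Lcn2, lipocalin 2, which binds bacterial siderophores, rose to 3444, 2804, 4005 and 2104 CPM in LPS, against 177, 225, 277 and 74.2 CPM in PBS (log2 fold change 4.04, adjusted p = 0.000946). Serping1, the C1 inhibitor, rose to 894, 872, 918 and 551 CPM in LPS, against 210, 157, 171 and 135 CPM in PBS (2.26, adjusted p = 0.000557). C3, the central complement component, rose by 1.97 (adjusted p = 0.000838). The kininogen genes, named after their values were seen, were higher in every LPS library. Kng2, T-kininogen, a cysteine protease inhibitor and a major acute phase protein of the rat, had 203, 482, 325 and 88 reads in LPS and 3, 1, 3 and 1 reads in PBS (adjusted p = 0.000852). Kng1 had 150, 227, 226 and 37 reads in LPS and 6, 0, 0 and 0 reads in PBS (adjusted p = 0.00535). The kininogen genes are close copies, and how reads shared between them were assigned is not given in the sources used here. LPS replicate 4 was the lowest LPS library for both, as it was for Saa3, Orm1, Ptx3, Fga and Fgb.

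Several other acute phase genes of liver were not higher at the threshold. Serpina1 fell to 54.7 ± 20.1 CPM in LPS, against 95.3 ± 14.2 CPM in PBS (SD, n = 4 each; -0.80, adjusted p = 0.0476), a call lost without any single library other than LPS replicate 1 (adjusted p 0.0531 to 0.113), and without LPS replicate 2 and PBS replicate 1 together (-0.85, adjusted p = 0.103). Lbp, which hands LPS to Cd14, had 239, 190, 169 and 109 CPM in LPS and 672, 224, 298 and 135 CPM in PBS (-0.91, adjusted p = 0.21), or -0.31 without PBS replicate 1. Serpina3n, a serine protease inhibitor, had 94.2, 33, 154 and 142 CPM in LPS and 258, 15.8, 9.27 and 5.22 CPM in PBS. PBS replicate 1 was above all other libraries, and the log2 fold change of 0.56 (adjusted p = 0.777) became 3.38 (adjusted p = 0.0118) without it and 3.68 (adjusted p = 0.00447) without LPS replicate 2 as well. Lbp and Serpina3n were named after their values were seen. Of 11 serum proteins that fall in the liver acute phase, 3 were tested (Tf, Rbp4 and Fetub) and 0 were called, with a median log2 fold change of -0.03.

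**Figure D3:**
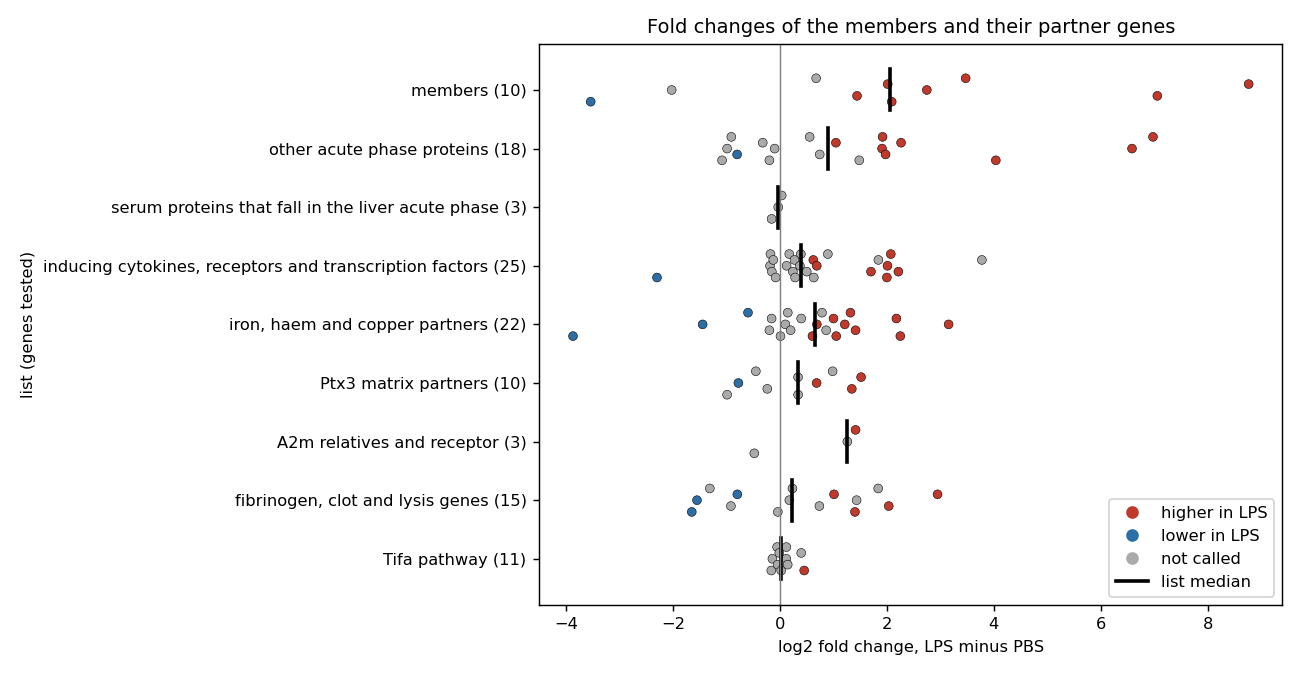
Log2 fold change, LPS minus PBS, of each tested gene among the 10 acute phase genes and in the lists around them, 1 row per list, with points coloured by call (higher in LPS, lower in LPS, not called) and the list median as a black line. The 10 genes have a median of 2.05, the further acute phase genes of 0.89 and the iron, haem and copper genes of 0.65, while the Tifa partners (0.02) lie close to 0.

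Of 25 genes for the cytokines, receptors and transcription factors that induce acute phase genes in liver, all tested, 7 were higher and 1 was lower, with a median log2 fold change of 0.39. Il1b rose to 39.0, 65.0, 76.9 and 76.3 CPM in LPS, against 9.76, 10.1, 11.6 and 24 CPM in PBS (log2 fold change 2.21, adjusted p = 0.00435). Tnf rose to 12.5, 10.1, 14.6 and 17.3 CPM in LPS, against 3.09, 1.66, 1.92 and 7.01 CPM in PBS (2.0, adjusted p = 0.0189). For both cytokines PBS replicate 4 was the highest control and still below every LPS library. The log2 fold change of Tnf was 2.61 without PBS replicate 4, and 2.07 without PBS replicate 1 and LPS replicate 2, where it missed the threshold (adjusted p = 0.0548). Il6, the main inducer in liver, did not pass the threshold, with 0.692, 0.384, 18.7 and 1.98 CPM in LPS and 0, 0.644, 0.370 and 0.570 CPM in PBS (3.77, adjusted p = 0.0961). LPS replicate 3 carried most of its reads, and without that library the log2 fold change was 1.37. DESeq2 called it higher (3.78, adjusted p = 0.0443). Osm, oncostatin M, had 1.06, 0.870, 3.98 and 4.43 CPM in LPS and 0.945, 1.31, 1.21 and 2.10 CPM in PBS (0.90, adjusted p = 0.313).

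Among the receptors, the shared chain gp130, Il6st, did not pass the threshold (0.39, adjusted p = 0.113). Osmr, the oncostatin M receptor, rose to 101, 83.5, 295 and 83.4 CPM in LPS, against 44.0, 34.2, 30.3 and 25.3 CPM in PBS (2.07, adjusted p = 0.015). Without LPS replicate 3 its log2 fold change was 1.41. Lifr, the other partner of gp130 for this cytokine family, fell to 53.7, 42.5, 37.7 and 37.2 CPM in LPS, against 397, 151, 210 and 83.9 CPM in PBS (-2.30, adjusted p = 0.00889). The LPS libraries were above all PBS libraries for Osmr and below all of them for Lifr. Osmr and Lifr were named after their values were seen.

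Of the transcription factors, Cebpd rose to 102, 106, 318 and 152 CPM in LPS, against 43.4, 35.5, 44.3 and 45.0 CPM in PBS (2.01, adjusted p = 0.00753). Stat3, itself a target of STAT3, rose to 353, 320, 482 and 312 CPM in LPS, against 229, 233, 237 and 212 CPM in PBS (0.69, adjusted p = 0.0138). Both were highest in LPS replicate 3. Cebpb (0.50, adjusted p = 0.27) and the glucocorticoid receptor Nr3c1 (-0.08, adjusted p = 0.53) did not pass the threshold. Neither did Socs3, the feedback inhibitor of gp130 signalling, at 48.6, 45.4, 296 and 85.8 CPM in LPS and 50.5, 22.8, 28.9 and 30.7 CPM in PBS (1.84, adjusted p = 0.0729, or 0.85 without LPS replicate 3), although DESeq2 called it higher (1.83, adjusted p = 0.0308).

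The 10 genes did not share a highest library. In LPS, replicate 3 was the highest for 5 of them, replicates 1 and 2 for 2 each and replicate 4 for 1, and replicate 4 was the lowest for 5. In PBS, replicate 1 was the highest for 5 and replicate 3 for 4, and replicate 4 was the lowest for 6. Ptx3 and Tifa, with LPS replicate 3 far ahead, shared their highest LPS library with most inducers. LPS replicate 3 was the highest LPS library for 19 of the 25 inducer genes (76%), against 28.1% of all genes tested. It was also the highest for 5 of 8 macrophage and 5 of 8 red cell markers, but for 0 of 9 neutrophil and 1 of 9 epithelium markers. In PBS, Ptx3 was highest in replicate 1, Tifa in replicate 2 and the inducers most often in replicate 4 (9 of 25). Hp and 8 of 9 neutrophil markers were both highest in LPS replicate 4, but the order of the other libraries differed: LPS replicate 3 had the second neutrophil sum (885 CPM) and the least Hp, and in PBS Hp was highest in replicate 3 and the neutrophil sum in replicate 4. A2m was highest in LPS replicate 2, as were 6 of 9 fibroblast markers, 5 of 8 yolk sac markers, 4 of 6 uterine and cervical identity genes and all 3 tested relatives and receptor of A2m, against 24.6% of all genes tested. In PBS, however, A2m was highest in replicate 3. Highest there were 0 of 9 fibroblast markers, 1 of 8 yolk sac markers and 1 of 6 identity genes. The same held for 0 of the 3 relatives and receptor of A2m and for 20.7% of all genes tested. Orm1 and Fga were highest in replicate 1 of both groups. These are arrangements of 4 libraries, and the part of cell content in them was not tested.

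**Figure D4:**
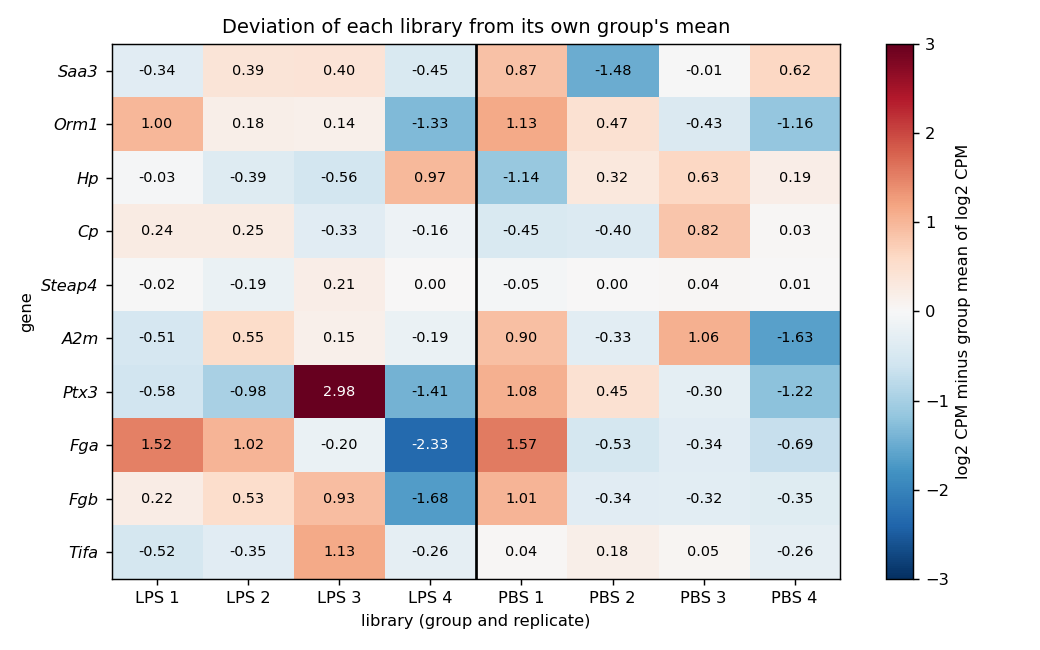
Log2 CPM of each acute phase gene in each library as a difference from the mean of its own group, as a colour map with LPS libraries left of PBS libraries. Ptx3 in LPS replicate 3 stands 2.98 above its group mean and Fga in LPS replicate 4 stands 2.33 below (-2.33), while Steap4 is close to 0 in all libraries.

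The gene most like each of the 10 was found by the root mean square difference of centred log2 CPM over all 8 libraries, a measure that counts both the LPS difference and the spread within groups. The search covered tested genes outside the 10 and left out those with placeholder symbols, such as LOC or RGD numbers. Saa3 was nearest to Mmp9, gelatinase B (1.13), and to Ces1c, a carboxylesterase (1.31). The measure is not scaled for the size of a change, and Saa3 rose most of all genes tested. Its large distances therefore cannot show whether other genes followed its pattern. Ptx3 was nearest to the chemokine genes Cxcl11 (0.932) and Ccl12 (1.01). Hp was nearest to Acod1, the itaconate-producing enzyme of activated myeloid cells (0.571), and to Lbhd2 (0.598). Lbhd2 had only 11 to 21 reads in LPS libraries and 0 in each PBS library. Cp was nearest to the myeloid lectin gene Clec4a2 (0.230) and to Tmc5 (0.309). Steap4 had the closest neighbours, Ms4a4a (0.153) and Ifi27l2b (0.162), followed by Tifa with Gsdme (0.164) and the matrix protease gene Tll1 (0.186).

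Orm1 was nearest to Pdcd1lg2 (0.430), which encodes a ligand of the receptor PD-1, and to the transporter gene Slc47a1 (0.497). Pdcd1lg2 did not pass the threshold and had only 10 to 28 reads in LPS libraries and 0 to 12 in PBS libraries. A2m was nearest to Edil3 (0.386) and Hes7 (0.392). Fga was nearest to Sctr, the secretin receptor (0.408), and Fut9, a fucosyltransferase (0.455), and Fgb to the globin gene Hba-a3 (0.484) and to Wfdc11 (0.509). Among the 10 genes themselves, Cp and Steap4 were the closest pair (0.569), and Tifa was next to Steap4 at 0.571. The fibrinogen genes were each other's nearest within the list but 1.09 apart. Saa3 and Ptx3, the pair with the largest rises, were 2.02 apart.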

How the data were processed

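Cervix RNA behind the 4 LPS and 4 PBS libraries was extracted with TRIzol and turned into libraries by the VAHTS Universal V6 kit, per the labels' protocols. The table holds raw counts as the authors deposited them, whole numbers for each symbol in each library, with no normalization. The submitters' processing notes list the build mRatBN7.2 and, as tools, HTSeq, fastp, HISAT2 and R 3.2.0. Strand setting and gene annotation: not given in the sources used here. Reads of overlapping, antisense or near-identical genes (Saa, kininogen and globin families) therefore cannot be separated. The promoter windows and their coordinates come from RefSeq on GRCr8, another build than that of the counts.

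From the counts, edgeR 4.0.16 in R 4.3.3 was run on all 8 libraries: filterByExpr by group kept 16117 of the 22854 genes with a count, TMM scaled the libraries, and robust quasi-likelihood F tests compared LPS with PBS without covariates, with Benjamini-Hochberg adjustment over all genes tested and calls at an adjusted p under 0.05. Adjusted p-values are from this test where no other tool is named. A log2 fold change is LPS minus PBS, and SE is the size of the change over the square root of F. All 10 acute phase genes passed the filter. Profiles were compared as log2 CPM (prior count 2). Floors of 3 counts cover counting error only. Replicates differed beyond sampling noise (chi-square per degree of freedom of 64.5 to 123 in LPS and 54.1 to 166 in PBS). The test was tested on simulated data.

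The alternatives were RLE, upper-quartile and library-total scaling, limma-voom 3.58.1 with or without quality weights, DESeq2 1.42.0, no filter, a filter of 1 CPM in 4 or more libraries, each library left out, PBS replicate 1 and LPS replicate 2 left out together, and the replicate number as a block. The 10 genes, the lists and the alternatives were chosen with earlier results of these data known. Named were the 10 genes, the 2 called genes with the lowest adjusted p of each list, a set of 22 genes whatever their result, and the 2 nearest profiles of each of the 10. Kng1, Kng2, Osmr, Lifr, Slc39a14, Atp7b, Heph, F3, Thbd, Itga2b, Fgl2, Plat, Itih5, Hapln1, Serpina1, Lbp, Serpina3n, Steap1, Steap2, Steap3, Fth1, Afp, A2ml1 and further list genes given only by level were named after their values were seen. Of these, A2ml1 and the genes given only by level were not followed under the alternatives.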

Additional observations from a re-analysis of the deposited data

Results flagged for a closer look

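By Dixon's test at the 95% level 164 groups of 4 libraries (82 genes, LPS and PBS) were examined, with CPM not logged. In 30 groups 1 library stood apart from the other 3. Chance does this in about 1 of 20 groups of independent, normally distributed values. Here the genes share the same libraries, and 22 were named after their values were seen and others for like profiles. The count therefore cannot be set against that rate. Among the 10 acute phase genes 1 library stood apart in 4 of 20 groups. LPS replicate 3 was high for Ptx3 (670 CPM) and Tifa (68.5 CPM), and PBS replicate 1 was high for Fga (14.1 CPM) and Fgb (2.55 CPM).

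LPS replicate 3 was also high for Ccl12 (80.7 CPM), Cd163 (278 CPM), Gsdme (11.1 CPM), Il6 (18.7 CPM), Ms4a4a (68.6 CPM), Osmr (295 CPM), Slc39a14 (235 CPM), Socs3 (296 CPM) and Tll1 (35.7 CPM). Ccl12, Gsdme and Tll1 had been taken for their likeness to Ptx3 or Tifa, so they add nothing independent.

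PBS replicate 1 was also high for Atp7b (36.4 CPM), Cd163 (53.1 CPM), Fgg (0.358 CPM), Kng1 (0.153 CPM) and Serpina3n (258 CPM). The values for Fgg and Kng1 rest on 14 and 6 reads.

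Other LPS libraries stood apart singly. LPS replicate 2 was high for Clec4a2 (10.1 CPM), F10 (8.47 CPM) and Tnfaip6 (1195 CPM) and low for Traf6 (26.7 CPM). LPS replicate 1 was high for Tmc5 (65.6 CPM), and LPS replicate 4 was low for Serping1 (551 CPM) and Wfdc11 (0.0489 CPM).

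In PBS, replicate 3 was high for Afp (0.394 CPM) and Tnfaip6 (954 CPM), replicate 4 for Alb (0.480 CPM) and Il1b (24 CPM), and replicate 2 was low for Cebpd (35.5 CPM).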

How the results depend on the processing

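Of 178 values of the 10 acute phase genes under the alternatives, 156 kept their call, 22 changed it and 0 changed sign. Saa3 (8.43 to 9.20), Steap4 (2.02 to 2.14), Hp (3.03 to 3.70) and Cp (2.51 to 3.10) were called under all of them. Of the 10 genes, 7 were higher in LPS, or 5 to 7 with 1 library left out, 6 with DESeq2 or no filter and 5 with limma-voom. DESeq2 gave no adjusted p for Ptx3, and Fgb was not tested at 1 CPM in 4 libraries. The count of lower genes among the 10, 1, became 2 with DESeq2 and with limma-voom with quality weights (Fgb, -2.14, adjusted p = 0.0445), 0 without PBS replicate 1 and LPS replicate 2 together, and 0 to 1 with 1 library left out. Without LPS replicate 1 the log2 fold change of Fga was -4.14. Over all genes, 1529 were higher and 1200 lower. Leaving out 1 library gave 904 (without PBS replicate 2) to 1385 higher and 563 (without PBS replicate 2) to 1199 lower, with 750 lower without LPS replicate 3 and 752 without PBS replicate 3, and DESeq2 gave 2089 lower. The replicate numbers are not said to mark a shared animal or batch. They follow the sample titles, and by its library name LPS replicate 4 is number 5, whereas PBS replicate 4 is number 4. The pair of replicate 4, and the block that uses it, therefore share a number by title only. Deviations of same-numbered libraries from their group means had r of -0.13, -0.18, -0.09 and 0.21 for replicates 1 to 4. Pairs with different numbers ran from -0.21 to 0.24. These 4 values cannot show whether same-numbered libraries shared a batch. With the replicate block 1151 genes were higher and 845 lower, 7 and 1 of them among the 10. The sign turned for 3 genes that were never called. Hmox1 was -0.012 with quality weights, -0.0012 with the replicate block and -0.36 (without LPS replicate 3) to 0.46 with 1 library left out, Steap3 was -0.036 without PBS replicate 1 and LPS replicate 2 and at most 0.26 with 1 library left out, and Traf6 was -0.062 to 0.030 with 1 library left out. The causes were not tested. Scaling moved the median of all genes by less than 0.1 on the log2 scale. Depth limits Fga, Fgb, Fgg and Saa4, with few reads per LPS library.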

Other observations

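Of 11 yolk sac markers 10 had a row in the count table and 8 were tested, of which 2 were higher and 1 lower in LPS. The list summed to 358, 380, 365 and 281 CPM in LPS replicates 1 to 4 and to 702, 307, 333 and 196 CPM in PBS replicates 1 to 4. LPS replicate 2 had the highest LPS sum by a small margin. For 5 of the 8 tested markers the highest LPS library was LPS replicate 2, against 24.6% of all genes tested. Single genes of yolk sac and fetal liver were highest there. Afp, alpha-fetoprotein, had 0, 9.42, 2.23 and 0.367 CPM in LPS and 0.128, 0.149, 0.394 and 0.150 CPM in PBS and did not pass the threshold (log2 fold change 3.84, adjusted p = 0.1). DESeq2, and edgeR without LPS replicate 1, called Afp higher. Its log2 fold change ran from 0.72 to 4.37 under the alternatives. Ttr, transthyretin, had 0.0247, 1.74, 0.152 and 0.0734 CPM in LPS and at most 0.0739 CPM in PBS, and Apoa1 had 0.0247, 2.15, 0.912 and 0.220 CPM in LPS and at most 0.230 CPM in PBS. Both were below the filter. Afp, Ttr and Apoa1 were named after their values were seen.

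Reads of Saa3 per read of Orm1 were 0.805, 2.34, 2.44 and 3.72 in LPS replicates 1 to 4 and 0.0147, 0.00376, 0.0227 and 0.0599 in PBS replicates 1 to 4. Reads of Saa3 per read of Hp were 22.6, 48.4, 55 and 10.5 in LPS and 2.82, 0.154, 0.4 and 0.872 in PBS. Saa3 rose most of all genes, which fixes the direction of both ratios. Among LPS libraries Saa3 over Orm1 was lowest in replicate 1 and Saa3 over Hp in replicate 4. Reads of A2m per read of Cp were 0.217, 0.448, 0.508 and 0.359 in LPS and 3.35, 1.39, 1.56 and 0.417 in PBS, and this ratio overlapped between the groups.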
